A study of Mus musculus with 8 samples.

Results

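The genes described here are 29 genes of cholesterol and lipid synthesis, together with the proteins that sense and move sterols, out of the 52110 genes with a symbol in the count table of the series. They were chosen by symbol from a list of names, and all 29 were present, each on 1 annotated gene. RNA was sequenced from primary fibroblasts of wild-type mouse lung that were left untreated or were given recombinant TWEAK at 10, 30 or 100 ng/ml, and all groups were collected at 48 h. TWEAK is a cytokine of the TNF superfamily. There were 2 libraries in each of the 4 groups. The labels give neither age nor sex, nor whether paired libraries are separate animals or cultures. P-values therefore measure spread between libraries, which may be technical. The medium of all groups held fetal serum.

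Cells make cholesterol from acetyl-CoA by way of mevalonate, farnesyl pyrophosphate, squalene and lanosterol. When membrane sterol is low, the escort protein Scap carries the SREBP transcription factors from the endoplasmic reticulum to the Golgi, where they are cleaved and released to switch on synthesis genes. When sterol is high, the Insig proteins hold Scap back, and oxysterols activate the LXR receptors, whose known targets include the cholesterol exporter Abca1. Fatty acid synthesis is driven by the SREBP-1 branch of the same system.

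Total counts were between 37345575 and 50896445 per library. The 29 genes all passed the filter on low counts, as did 17360 genes in all. Levels are given as CPM, counts scaled to a common library size. A gene is called changed where its adjusted p in edgeR's quasi-likelihood test, with Benjamini-Hochberg adjustment over all 17360 genes, was under 0.05. Intervals (95%) and standard errors (SE) come from that test and are approximate. On the first principal component of all tested genes, which held 67.5% of the variance, the untreated libraries lay at -43.8 and -42.4, the 10 ng/ml libraries at 39.4 and 40.9, the 30 ng/ml libraries at 31.9 and 22.8 and the 100 ng/ml libraries at -24.47 and -24.49. The libraries labelled 100 ng/ml thus lay nearer to the untreated ones than the lower doses did, and doses are given as labelled throughout. All comparisons with untreated cells share the same untreated libraries. With 2 libraries in each group, groups can lie apart without overlap by chance. The share of all genes that did so was not counted.

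In untreated cells, levels per kilobase of exon ranged over the pathway from the desaturase gene Scd1, at 370 ± 3.38 CPM per kb (SD, n = 2), to Insig2, at 11.1 ± 0.299 CPM per kb. Insig1, whose product also retains Scap, stood at 157 ± 2.65 CPM per kb, and the second desaturase gene, Scd2, at 150 ± 8.90 CPM per kb, a difference within their spread. Hmgcs1, which makes HMG-CoA, followed at 112 ± 5.25 CPM per kb, and Sc5d, a late sterol desaturase, at 93.2 ± 1.23 CPM per kb. Acat2, Fdps and Fasn lay at 87.5 ± 3.68, 81.0 ± 0.568 and 80.3 ± 1.98 CPM per kb, the last 2 within their spread of each other. Abca1 stood at 27.7 ± 0.168 CPM per kb. Scap and the lysosomal sterol exporter Npc1, at 12.6 ± 0.265 and 13.9 ± 0.520 CPM per kb, were lowest after Insig2. This order depends on the exon lengths used. In CPM, untreated cells had 153 and 161 for Npc1, above 48.0 and 43.4 for Pmvk.

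The response at the lower doses was made up of moderate rises of 1 to 3 genes in each branch, with Abca1 far in front. At 10 ng/ml, 9 of the 29 genes rose (31.0%) against 15% of all genes tested, and 1 fell (3.45%) against 14.2% of all genes. At 30 ng/ml, 9 rose, against 12.6% of all genes, and edgeR, DESeq2 and limma-voom called 0 lower, against 10.7% of all genes in edgeR. An unadjusted p under 0.05 in edgeR was reached by 13 of the 29 at each of these doses. The share of all genes under that unadjusted threshold was not counted, here or below. Among the 7783 genes averaging at least 20 CPM, a level that all 29 exceed, 20% rose and 19.9% fell at 10 ng/ml, and 16.8% rose and 15.7% fell at 30 ng/ml. The median log2 change of the 29 was 0.15 at 10 ng/ml and 0.09 at 30 ng/ml, beside 0.01 for all genes at each dose. The sizes were small: 26 of the 29 lay within 0.5 of no change on the log2 scale at 10 ng/ml, where 61.7% of all genes did. The summed level of the 29 was 10095 and 10209 CPM at 10 ng/ml, against 8990 and 8943 CPM in untreated cells.

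**Figure D1:**
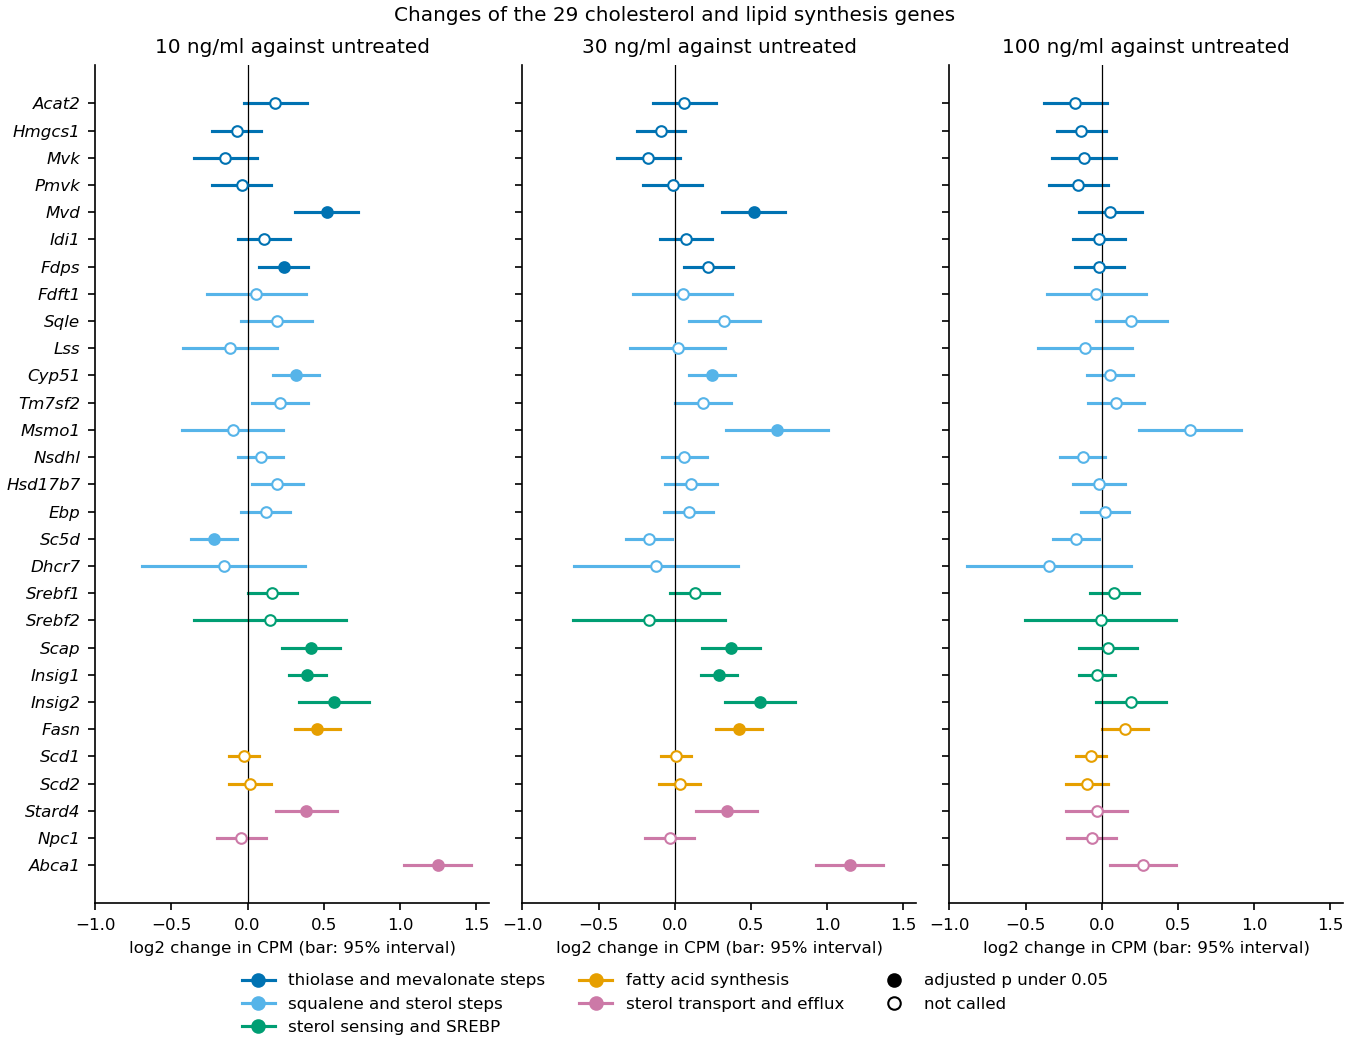
Log2 change in CPM of each of the 29 genes at 10, 30 and 100 ng/ml against untreated cells, coloured by role, with bars for the 95% interval; filled points have an adjusted p under 0.05. Abca1 stands apart at 1.25 and 1.15 at the lower doses, and at 100 ng/ml no point is filled.

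The largest change among the 29 genes at 10 and 30 ng/ml was in sterol transport. Abca1 (chr4:53030787-53159895, minus strand, mm10), which exports cholesterol to apolipoproteins, had 289 and 286 CPM in untreated cells, 626 and 738 CPM at 10 ng/ml, 630 and 643 CPM at 30 ng/ml and 373 and 321 CPM at 100 ng/ml. The libraries of the lower doses lay far above all others, and those labelled 100 ng/ml lay a little above the untreated ones without overlap. Abca1 rose 2.37-fold at 10 ng/ml (95% interval 2.04 to 2.76, edgeR adjusted p = 5.18e-05) and 2.21-fold at 30 ng/ml (1.90 to 2.58, edgeR adjusted p = 0.000112). Stard4, a cytosolic carrier that moves sterol between membranes, had 110 and 111 CPM in untreated cells, 134 and 154 CPM at 10 ng/ml, 144 and 136 CPM at 30 ng/ml and 112 and 104 CPM at 100 ng/ml. Its libraries at the lower doses did not overlap with the rest. Stard4 rose by 0.38 ± 0.09 on the log2 scale at 10 ng/ml (SE, edgeR adjusted p = 0.0121) and by 0.34 ± 0.09 at 30 ng/ml (edgeR adjusted p = 0.0247). At 10 ng/ml the log2 change of Stard4 stayed between 0.27 and 0.47 in all alternative fits. The call there was lost without 10 ng/ml replicate 2 or either untreated library, fits that leave a lone library in a group. At 30 ng/ml its adjusted p was 0.131, 0.0571, 0.116 and 0.108 without 30 ng/ml replicate 1 or 2 or untreated replicate 1 or 2. Npc1, which releases cholesterol from lysosomes, was not called at any dose and had log2 changes of -0.04 at 10 ng/ml and -0.03 at 30 ng/ml.

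**Figure D2:**
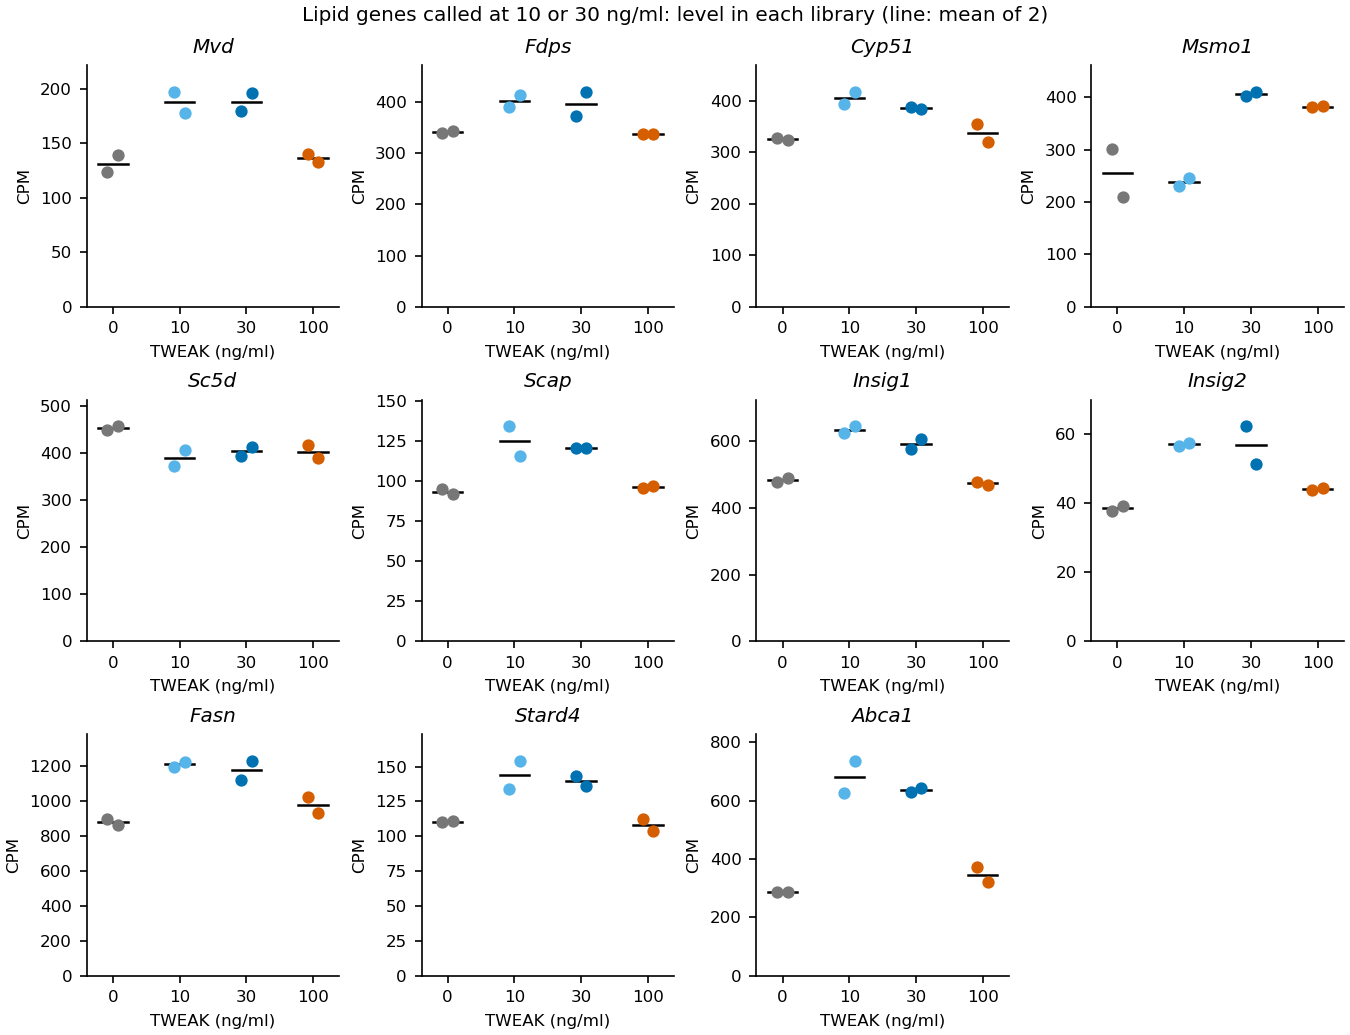
CPM in each library against the TWEAK dose in ng/ml, with 0 for untreated cells, for the 11 genes called at 10 or 30 ng/ml; points are libraries and lines the mean of 2. In Abca1 the libraries at 10 and 30 ng/ml sit between 626 and 738 CPM and the rest between 286 and 373 CPM.

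Of the 5 genes of sterol sensing, 3 rose at each of the lower doses: Scap and both Insig genes. That was 60%, against 15% of all genes at 10 ng/ml and 12.6% at 30 ng/ml. Insig2 (chr1:121304353-121332589, minus strand) had 37.9 and 39.4 CPM in untreated cells, 56.7 and 57.5 CPM at 10 ng/ml, 62.4 and 51.5 CPM at 30 ng/ml and 43.8 and 44.5 CPM at 100 ng/ml. Every treated library lay above the untreated ones, those of the lower doses highest. Insig2 rose 1.48-fold at 10 ng/ml (1.26 to 1.73, edgeR adjusted p = 0.00378) and 1.48-fold at 30 ng/ml (edgeR adjusted p = 0.00484). Insig1 (chr5:28071363-28078662, plus strand), itself a known SREBP target, had 478 and 490 CPM in untreated cells, 624 and 646 CPM at 10 ng/ml, 577 and 608 CPM at 30 ng/ml and 478 and 470 CPM at 100 ng/ml. Its 2 lower doses stood clear of the other libraries, while 100 ng/ml and untreated overlapped. Insig1 rose 1.31-fold at 10 ng/ml (1.21 to 1.43, edgeR adjusted p = 0.000902) and 1.22-fold at 30 ng/ml (1.13 to 1.33, edgeR adjusted p = 0.00494).

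Scap (chr9:110333288-110384950, plus strand), the sterol-sensing escort of the SREBPs, had 94.9 and 92.1 CPM in untreated cells, 134 and 116 CPM at 10 ng/ml, 121 and 120 CPM at 30 ng/ml and 95.6 and 97.0 CPM at 100 ng/ml. The lower doses again lay above the rest without overlap. Scap rose 1.34-fold at 10 ng/ml (edgeR adjusted p = 0.00659) and 1.29-fold at 30 ng/ml (edgeR adjusted p = 0.0148). At 30 ng/ml the call was lost without either 30 ng/ml library or either untreated one, with an adjusted p of 0.0705, 0.0611, 0.0658 and 0.0928 for Scap. The transcription factor genes themselves were not called. Srebf1 had 189 and 183 CPM at 10 ng/ml, against 173 and 160 CPM in untreated cells, without overlap and with a log2 change of 0.16. Srebf2, which encodes the main activator of the cholesterol branch, had 371 and 243 CPM at 10 ng/ml, against 251 and 304 CPM in untreated cells, so that its replicates spanned each other.

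In the mevalonate branch of 7 genes, Mvd was the gene that moved most. Mvd (chr8:122433601-122443422, minus strand) encodes the decarboxylase that makes isopentenyl pyrophosphate. It had 123 and 139 CPM in untreated cells, 197 and 178 CPM at 10 ng/ml, 180 and 196 CPM at 30 ng/ml and 140 and 132 CPM at 100 ng/ml. The libraries labelled 100 ng/ml overlapped with the untreated ones, and the lower doses lay above both. Mvd rose 1.43-fold at 10 ng/ml (1.24 to 1.65, edgeR adjusted p = 0.00342) and 1.43-fold at 30 ng/ml (edgeR adjusted p = 0.00421). Fdps, farnesyl pyrophosphate synthase, had 339 and 342 CPM in untreated cells, 390 and 414 CPM at 10 ng/ml, 373 and 420 CPM at 30 ng/ml and 336 and 337 CPM at 100 ng/ml. The lower doses lay above the others without overlap. Fdps rose by 0.24 ± 0.07 on the log2 scale at 10 ng/ml (SE, edgeR adjusted p = 0.0349) and had a log2 change of 0.22 at 30 ng/ml (edgeR adjusted p = 0.0567, limma-voom adjusted p = 0.0455). The call of Fdps at 10 ng/ml was lost without either 10 ng/ml library (adjusted p 0.0621 and 0.160), either untreated one (0.152 and 0.125) or either one labelled 100 ng/ml (0.0554 and 0.0548). The first steps did not pass the test at either dose. Hmgcs1 had 467 and 509 CPM at 10 ng/ml, against 496 and 530 CPM in untreated cells, with overlap. The log2 changes at 10 ng/ml were 0.18 for the thiolase gene Acat2, -0.07 for Hmgcs1, -0.15 and -0.04 for the kinase genes Mvk and Pmvk, and 0.11 for the isomerase gene Idi1. Idi1 averaged 283 ± 21.3 CPM at 10 ng/ml, against 263 ± 13.1 CPM in untreated cells (SD, n = 2), with overlap. Mvk averaged 105 ± 9.03 CPM at 10 ng/ml, against 116 ± 7.12 CPM in untreated cells, and Pmvk 44.5 ± 1.96 CPM at 10 ng/ml, against 45.7 ± 3.28 CPM in untreated cells.

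Of the 11 genes from squalene to cholesterol, 1 rose and 1 fell at 10 ng/ml (9.09% each), against 15% and 14.2% of all genes. At 30 ng/ml 2 rose (18.2%), against 12.6% of all genes, and 0 fell, against 10.7%. Cyp51, the lanosterol demethylase, had 327 and 324 CPM in untreated cells, 393 and 418 CPM at 10 ng/ml, 388 and 384 CPM at 30 ng/ml and 355 and 320 CPM at 100 ng/ml. The lower doses lay above the other groups, which overlapped. Cyp51 rose 1.25-fold at 10 ng/ml (1.12 to 1.38, edgeR adjusted p = 0.00831) and 1.19-fold at 30 ng/ml (1.07 to 1.32, edgeR adjusted p = 0.0304). At 10 ng/ml its adjusted p was 0.0534 without untreated replicate 2. At 30 ng/ml the adjusted p of Cyp51 was 0.121, 0.0862, 0.125 and 0.137 without 30 ng/ml replicate 1 or 2 or untreated replicate 1 or 2. Sc5d, which introduces a double bond near the end of the pathway, had 449 and 458 CPM in untreated cells, 374 and 406 CPM at 10 ng/ml, 394 and 414 CPM at 30 ng/ml and 418 and 389 CPM at 100 ng/ml. All 6 treated libraries lay below both untreated ones. Sc5d fell by 0.22 on the log2 scale at 10 ng/ml (SE 0.07, edgeR adjusted p = 0.0383), and its adjusted p was 0.165, 0.117 and 0.151 without 10 ng/ml replicate 1, untreated replicate 1 or untreated replicate 2. The adjusted p of Sc5d was also 0.0542 in a fit of only the groups compared and 0.0753 with library totals in place of TMM.

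Msmo1 (chr8:64718139-64733792, minus strand), the sterol 4-methyl oxidase, did not follow the order of the other called genes. It had 301 and 210 CPM in untreated cells, 230 and 247 CPM at 10 ng/ml, 402 and 411 CPM at 30 ng/ml and 381 and 382 CPM at 100 ng/ml. The libraries at 10 ng/ml lay inside the untreated range, and both higher doses lay above all of these. Msmo1 rose 1.59-fold at 30 ng/ml (1.26 to 2.01, edgeR adjusted p = 0.0121) and had log2 change -0.10 ± 0.14 at 10 ng/ml (SE, edgeR adjusted p = 0.660). Its 2 untreated libraries differed 1.43-fold, where 95% of genes of at least 20 CPM differed less than 1.29-fold. Its log2 change at 30 ng/ml was 0.67 with both, 0.95 without untreated replicate 1 and 0.43 without untreated replicate 2. Without untreated replicate 2, Msmo1 was called lower at 10 ng/ml, with a log2 change of -0.34 (adjusted p = 0.0215). The other genes of this branch that were called at neither dose had log2 changes at 10 ng/ml from -0.16 for Dhcr7, the last reductase, to 0.21 for the sterol reductase Tm7sf2. Tm7sf2 averaged 83.6 ± 0.887 CPM at 10 ng/ml, against 72.1 ± 4.68 CPM in untreated cells (SD, n = 2). Hsd17b7, a ketosteroid reductase, averaged 196 ± 14.2 CPM at 10 ng/ml, against 171 ± 2.73 CPM in untreated cells, and both genes lay higher at 10 ng/ml without overlap but were not called. Ebp, the sterol isomerase, averaged 79.0 ± 3.26 CPM at 10 ng/ml, against 72.9 ± 0.481 CPM in untreated cells, also without overlap. Nsdhl averaged 228 ± 4.62 CPM at 10 ng/ml, against 215 ± 1.27 CPM in untreated cells, again without overlap. How often genes in general lay apart in this way was not counted. Fdft1 averaged 171 ± 9.71 CPM at 10 ng/ml, against 165 ± 13.5 CPM in untreated cells, within the spread of replicates. Sqle, the squalene epoxidase, had 268 and 280 CPM at 30 ng/ml, against 233 and 204 CPM in untreated cells, without overlap (log2 change 0.33, edgeR adjusted p = 0.0526). DESeq2 and limma-voom called Sqle higher at 30 ng/ml, with an adjusted p of 0.0156 and 0.0381, as did edgeR under 6 of the other alternatives.

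Fatty acid synthesis split between the synthase and the desaturases. Fasn (chr11:120805846-120824547, minus strand), the fatty acid synthase, had 895 and 864 CPM in untreated cells, 1193 and 1223 CPM at 10 ng/ml, 1121 and 1231 CPM at 30 ng/ml and 1022 and 930 CPM at 100 ng/ml. The lower doses were highest, 100 ng/ml was between, and no treated group overlapped with untreated cells. Fasn rose 1.37-fold at 10 ng/ml (1.24 to 1.52, edgeR adjusted p = 0.00127) and 1.34-fold at 30 ng/ml (1.21 to 1.48, edgeR adjusted p = 0.00258). Scd1 and Scd2, which put the first double bond into fatty acids, had log2 changes of -0.02 and 0.02 at 10 ng/ml. The 95% intervals ran from -0.12 to 0.08 for Scd1 and from -0.12 to 0.15 for Scd2.

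At 100 ng/ml, 0 of the 29 genes were called against untreated cells by edgeR, where 1.12% of all genes were. An unadjusted p under 0.05 was reached by 4 of them, Msmo1, Sc5d, Fasn and Abca1, and DESeq2 called 1 and limma-voom 0. The gene DESeq2 called was Msmo1, with 381 and 382 CPM at 100 ng/ml against 301 and 210 CPM in untreated cells, with log2 change 0.58 ± 0.14 (SE, edgeR adjusted p = 0.138, DESeq2 adjusted p = 0.00082). In edgeR, Msmo1 was called without untreated replicate 1 (log2 change 0.86, adjusted p = 0.0129). Abca1 stood 1.21-fold higher (1.04 to 1.40, edgeR adjusted p = 0.296). Dhcr7 had 50.1 and 92.0 CPM at 100 ng/ml, against 89.9 and 90.7 CPM in untreated cells, so that replicate 1 alone lay low. Without 100 ng/ml replicate 2, Dhcr7 was called lower, by 0.85 on the log2 scale (log2 change -0.85, adjusted p = 0.0188).

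The difference between doses was tested directly. At 100 ng/ml, 11 of the 29 genes were lower and 1 was higher than at 10 ng/ml, where 11.2% and 10.7% of all genes were. The 11 were Abca1, Stard4, Insig1, Insig2, Scap, Fasn, Mvd, Fdps, Cyp51, Acat2 and Nsdhl, and the 1 was Msmo1. The log2 change of Abca1 was -0.97 ± 0.09 (SE, edgeR adjusted p = 0.000302), that of Insig1 -0.42 ± 0.05 (edgeR adjusted p = 0.00093) and that of Stard4 -0.42 ± 0.09 (edgeR adjusted p = 0.0117). Mvd differed by -0.46 ± 0.09 (edgeR adjusted p = 0.00837), and Fasn by -0.31 ± 0.06 (edgeR adjusted p = 0.0123). Acat2 had 208 and 186 CPM at 100 ng/ml, against 271 and 234 CPM at 10 ng/ml, and Nsdhl, a sterol dehydrogenase, had 188 and 205 CPM at 100 ng/ml, against 225 and 231 CPM at 10 ng/ml. Acat2 lost this call without 10 ng/ml replicate 1 (adjusted p = 0.144) or 100 ng/ml replicate 2 (adjusted p = 0.138), and Nsdhl when any 1 of the 8 libraries was left out (0.0503 to 0.241). Msmo1 was 1.60-fold higher at 100 than at 10 ng/ml (1.27 to 2.02, edgeR adjusted p = 0.0129). Msmo1 lost this call without 10 ng/ml replicate 1 (adjusted p = 0.0783) or either library labelled 100 ng/ml (0.0553 and 0.0552). Fasn and Stard4 lost it without 10 ng/ml replicate 2 (0.0586 and 0.0597) or 100 ng/ml replicate 2 (0.0689 and 0.073), and Mvd without 10 ng/ml replicate 1 (0.0553) or 100 ng/ml replicate 2 (0.0555). Fdps and Insig2 lost it when any 1 of the 10 ng/ml, 100 ng/ml or untreated libraries was left out. Cyp51 lost it without either 10 ng/ml library or 100 ng/ml replicate 2, and Scap without 10 ng/ml replicate 1 or either 100 ng/ml one. With all libraries, Insig2 and Nsdhl also lost it with no filter on low counts (edgeR adjusted p = 0.0507 and 0.0628). A replicate block lost both calls too (edgeR adjusted p = 0.0517 and 0.0628). Acat2, Cyp51 and Nsdhl lost it in an edgeR fit of only the groups compared (adjusted p = 0.0618, 0.0664 and 0.109). Abca1 and Insig1 were called in each of the alternatives, and without 100 ng/ml replicate 2 they alone of the 12 were. In that fit the log2 change of Dhcr7 was -0.69, against -0.19 with both libraries.

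Against 30 ng/ml, 7 of the 29 genes were lower at 100 ng/ml, where 8.04% of all genes were, and edgeR, DESeq2 and limma-voom called 0 higher, where edgeR called 7.15% of all genes. An unadjusted p under 0.05 was reached by 11 of the 29 in either direction. The 7 were Abca1, Stard4, Insig1, Insig2, Scap, Fasn and Mvd, with log2 changes from -0.87 for Abca1 to -0.27 for Fasn. Of the 7, Abca1 and Insig1 were called in every alternative. The others all lost the call without 100 ng/ml replicate 2, and each of them also without another library. With all libraries of the compared groups, Fasn and Insig2 lost it in an edgeR fit of only those groups (adjusted p = 0.0898 and 0.101). Scap lost it with no filter on low counts (edgeR adjusted p = 0.0588). Without 100 ng/ml replicate 2, the log2 change of Dhcr7, which is not among the 7, was -0.73, against -0.22 with both libraries. Between 30 and 10 ng/ml, edgeR called 0 of the 29 genes, 1 had an unadjusted p under 0.05, DESeq2 called 1 and limma-voom 0, beside 0% of all genes in edgeR. That gene was Msmo1, at 402 and 411 CPM at 30 ng/ml, against 230 and 247 CPM at 10 ng/ml, a log2 change of 0.77 with a DESeq2 adjusted p of 6.13e-06. In edgeR, Msmo1 was called between these doses without untreated replicate 1 (adjusted p = 0.0373) or untreated replicate 2 (adjusted p = 0.0337).

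The spread between the 2 libraries of a group bears on the genes that were not called. Srebf2 differed 1.52-fold between the 10 ng/ml libraries and 1.39-fold between those labelled 100 ng/ml, beyond 95% of genes of at least 20 CPM. Dhcr7 and the squalene synthase gene Fdft1 differed 1.83-fold and 1.38-fold between the libraries labelled 100 ng/ml. Lss, the lanosterol synthase, had 179 and 130 CPM at 10 ng/ml, a 1.37-fold difference, against 170 and 164 CPM in untreated cells. Without 10 ng/ml replicate 1, Lss was called lower at 10 ng/ml (log2 change -0.37, adjusted p = 0.0264).

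**Figure D3:**
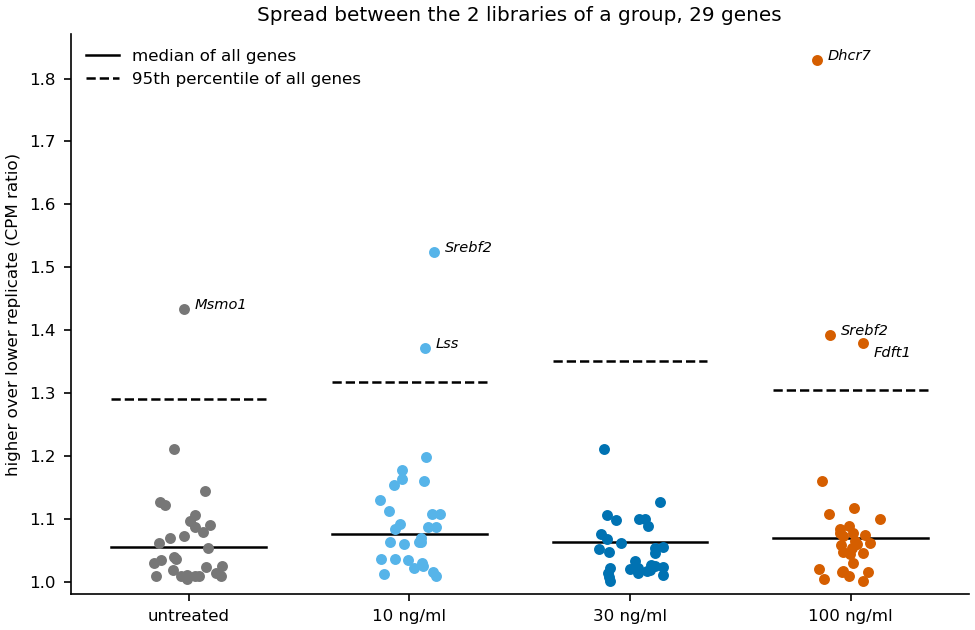
Ratio of the higher to the lower CPM of the 2 libraries in each group, 1 point per gene for the 29 genes; lines mark the median and the 95th percentile of the 7783 genes averaging at least 20 CPM. Dhcr7 at 100 ng/ml, at 1.83, and Srebf2 at 10 ng/ml, at 1.52, lie highest, and at 30 ng/ml no member passes the 95th percentile.

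Promoter sequences are shown for Abca1, Insig1, Fasn and Mvd, which were called at both lower doses, and for Hmgcs1, which was not, because the letters near their starts can be set beside their changes. Windows from 250 bases before to 50 after the RefSeq start (GRCm38.p6, the mm10 assembly) were at hand for 22 of the 29 genes. The motifs searched on both strands were TCACNCCAC (the core of a sterol regulatory element, where SREBPs bind), CCAAT (the box bound by NF-Y), GGGCGG (the GC box bound by Sp1) and CACGTG (the E-box), and no match overlapped a match of a different motif. Each line below holds 150 bases in the direction of the gene, with matches in capitals on either strand; the stretch covers 199 to 50 bases before the start for Insig1 and 150 to 1 for the others.
Abca1, chr4:53159896-53160045, minus strand: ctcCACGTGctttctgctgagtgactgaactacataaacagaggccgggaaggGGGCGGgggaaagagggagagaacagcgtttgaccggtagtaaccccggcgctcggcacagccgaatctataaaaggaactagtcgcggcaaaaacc
Insig1, chr5:28071213-28071362, plus strand: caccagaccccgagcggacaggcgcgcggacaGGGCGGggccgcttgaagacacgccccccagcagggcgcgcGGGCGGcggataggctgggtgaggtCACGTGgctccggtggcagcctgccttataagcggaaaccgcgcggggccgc
Fasn, chr11:120824548-120824697, minus strand: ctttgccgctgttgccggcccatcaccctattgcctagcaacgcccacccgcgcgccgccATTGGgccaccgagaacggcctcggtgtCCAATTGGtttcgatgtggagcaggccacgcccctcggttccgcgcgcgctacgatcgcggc
Mvd, chr8:122443423-122443572, minus strand: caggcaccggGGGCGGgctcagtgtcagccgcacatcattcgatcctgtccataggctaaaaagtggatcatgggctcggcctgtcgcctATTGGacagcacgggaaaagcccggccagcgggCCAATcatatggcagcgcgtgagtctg
Hmgcs1, chr13:119690201-119690350, plus strand: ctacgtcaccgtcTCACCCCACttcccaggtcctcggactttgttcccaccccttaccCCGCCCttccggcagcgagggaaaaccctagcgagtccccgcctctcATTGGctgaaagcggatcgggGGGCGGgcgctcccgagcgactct

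The SREBP core stood in the window of 1 of the 22 genes, Hmgcs1, at 137 bases before its start, beside 1.44% of all 27025 genes with a window. As given above, Hmgcs1 was not called at either lower dose. CCAAT was found in 19 of the 22 genes (86.4%), beside 41.1% of all genes and 42.6% of the tested ones, and GGGCGG in 20 (90.9%), beside 38.2% and 66.6%. CACGTG was found in 6 (27.3%), beside 8.09% and 11.4%. Those 6 were Abca1, Insig1, Scap, Dhcr7, Hsd17b7 and Sc5d. Of these, Abca1, Insig1 and Scap rose at 10 ng/ml, Sc5d fell, and Dhcr7 and Hsd17b7 were not called. Mvd, Cyp51, Insig2 and Fasn, whose windows hold no CACGTG, rose at 10 ng/ml too. A link between any motif and the changes was not tested. The stretch of Abca1 holds an E-box and a GC box, and that of Fasn holds CCAAT boxes. A match describes the sequence and is not a measured binding site. A window without a match may still hold a site, since only the fixed patterns given above were searched. Whether SREBPs act on these genes was not tested.

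Lists of other lipid genes were taken from the same tests, in which 15% of all genes were higher and 14.2% lower at 10 ng/ml, 12.6% higher and 10.7% lower at 30 ng/ml, and 1.12% changed in either direction at 100 ng/ml. Among genes averaging at least 20 CPM, 20% were higher and 19.9% lower at 10 ng/ml, and 16.8% and 15.7% at 30 ng/ml. That level was not required of the listed genes. Of 19 genes of sterol uptake, storage, efflux and oxysterols, 8 rose (42.1%) and 4 fell (21.1%) at 10 ng/ml, 6 rose (31.6%) and 4 fell (21.1%) at 30 ng/ml, and 1 rose at 100 ng/ml. Their median log2 change was 0.20 at 10 ng/ml. Ch25h, which makes 25-hydroxycholesterol, a sterol that holds back SREBP processing, had 21.1 and 20.8 CPM in untreated cells, 51 and 47 CPM at 10 ng/ml, 49.7 and 47.6 CPM at 30 ng/ml and 29.2 and 30.8 CPM at 100 ng/ml. All treated libraries of Ch25h lay above the untreated ones. It rose by 1.22 ± 0.08 on the log2 scale at 10 ng/ml (SE, edgeR adjusted p = 3.04e-05) and by 0.52 ± 0.08 at 100 ng/ml (edgeR adjusted p = 0.0335). At 100 ng/ml the call of Ch25h was lost when any 1 of the 8 libraries was left out, with an adjusted p from 0.0522 to 0.193. Vldlr, a lipoprotein receptor, rose by 1.03 ± 0.07 at 10 ng/ml, and Npc2, which hands cholesterol to Npc1 in lysosomes, by 0.43 ± 0.05 (edgeR adjusted p = 2.26e-05 and 0.0005). Lipa, the lysosomal lipase that frees cholesterol from its esters, fell by 0.64 at 10 ng/ml (SE 0.06, edgeR adjusted p = 0.000176), with 114 and 107 CPM at 10 ng/ml, against 172 and 172 CPM in untreated cells.

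Of 21 genes of fatty acid and glycerolipid synthesis, 5 rose (23.8%) and 3 fell (14.3%) at 10 ng/ml, 6 rose (28.6%) and 3 fell (14.3%) at 30 ng/ml, and edgeR called 0 at 100 ng/ml, where 3 had an unadjusted p under 0.05 and DESeq2 and limma-voom called 0. The share that fell at 10 ng/ml was that of all genes, 14.2%. The share that rose lay near the 20% of genes averaging at least 20 CPM. Acly, which supplies cytosolic acetyl-CoA to both pathways, rose by 0.33 ± 0.04 at 10 ng/ml and 0.33 ± 0.04 at 30 ng/ml on the log2 scale (SE, edgeR adjusted p = 0.000929 and 0.00132). Lpin1, a phosphatidic acid phosphatase, rose by 1.30 ± 0.10 at 10 ng/ml (edgeR adjusted p = 4.55e-05). Gpam and Dgat2, an early and the last enzyme of triglyceride synthesis, had log2 changes of -0.74 ± 0.08 and -1.29 ± 0.16 at 10 ng/ml (edgeR adjusted p = 0.000261 and 0.00067). Gpam had 51.6 and 54.9 CPM at 10 ng/ml and 89.8 and 85.2 CPM at 30 ng/ml, against 84.8 and 92.8 CPM in untreated cells, with 30 ng/ml overlapping untreated cells. Between 30 and 10 ng/ml its log2 change was 0.72 ± 0.08 (SE, edgeR adjusted p = 0.103). The 9 calls of this list at 30 ng/ml became 5 without 30 ng/ml replicate 1 and 4 without untreated replicate 1.

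Of 16 genes of fatty acid oxidation, 9 fell (56.2%, against 14.2% of all genes) and 2 rose (12.5%, against 15%) at 10 ng/ml. At 30 ng/ml 7 fell (43.8%, against 10.7% of all genes) and 2 rose (12.5%, against 12.6%). The median log2 change was -0.31 at 10 ng/ml and -0.27 at 30 ng/ml. Cpt1a, which admits fatty acids to mitochondria, had 222 and 212 CPM in untreated cells, 98.5 and 86.8 CPM at 10 ng/ml, 103 and 116 CPM at 30 ng/ml and 177 and 175 CPM at 100 ng/ml. Every treated library of Cpt1a lay below the untreated ones, the lower doses lowest. It fell by 1.23 on the log2 scale at 10 ng/ml (SE 0.09, edgeR adjusted p = 3.94e-05). Acaa2 and Cpt2, a thiolase and the inner carnitine palmitoyltransferase, had log2 changes of -1.07 ± 0.12 and -0.82 ± 0.09 (edgeR adjusted p = 0.000473 and 0.000333), while Pnpla2, the lipase that opens lipid droplets, rose by 0.82 ± 0.09 (edgeR adjusted p = 0.000326). The 11 calls at 10 ng/ml became 7, 7, 6 and 6 without 10 ng/ml replicate 1 or 2 or untreated replicate 1 or 2, and the 9 calls at 30 ng/ml became 5 without untreated replicate 1 or 2. At 100 ng/ml edgeR, DESeq2 and limma-voom called 0 of these genes, and 3 had an unadjusted p under 0.05 in edgeR.

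Of 15 genes of SREBP processing and isoprenoid branches, edgeR called 1 higher at 10 ng/ml, 1 higher and 1 lower at 30 ng/ml and 0 at 100 ng/ml, where 0 had an unadjusted p under 0.05 and DESeq2 and limma-voom called 0. At 10 ng/ml that was 6.67% higher, against 15% of all genes, and 0% lower, against 14.2%. Erlin2, an endoplasmic reticulum protein, had 103 and 105 CPM at 10 ng/ml, against 86.3 and 86.4 CPM in untreated cells, with log2 change 0.27 ± 0.07 (SE, edgeR adjusted p = 0.0263). The call of Erlin2 was lost without either 10 ng/ml library (adjusted p 0.0871 and 0.104) or either untreated one (0.12 and 0.117). Ggps1, which makes geranylgeranyl pyrophosphate from the product of Fdps, had 43.8 and 45.6 CPM at 30 ng/ml, against 53.4 and 52.9 CPM in untreated cells (log2 change -0.25, edgeR adjusted p = 0.0367), and its call was lost when any 1 of the 8 libraries was left out, with an adjusted p from 0.0516 to 0.185. Rnf139 and Fnta were not called at any dose, but without 10 ng/ml replicate 1 Fnta, a subunit of protein prenyltransferases, was called lower at 10 ng/ml (log2 change -0.47, adjusted p = 0.0209).

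**Figure D4:**
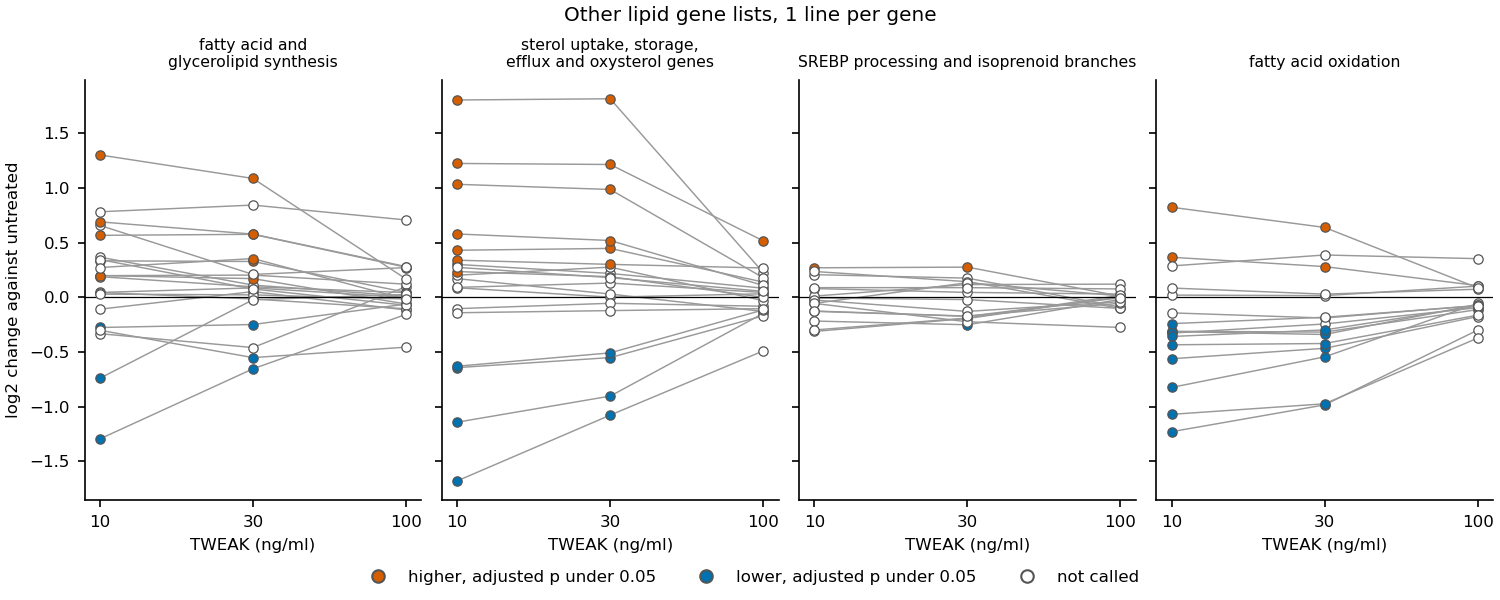
Log2 change against untreated cells at 10, 30 and 100 ng/ml for each gene of 4 further lipid lists, 1 line per gene; orange and blue points are called higher and lower. Fatty acid oxidation has 9 blue points at 10 ng/ml and 0 coloured points at 100 ng/ml.

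Fibroblast markers differed between the groups, with the lower doses furthest from untreated cells. Their summed level, over 9 genes, was 21634 and 21327 CPM in untreated cells, 11267 and 11147 CPM at 10 ng/ml, 11996 and 13237 CPM at 30 ng/ml and 18936 and 19960 CPM at 100 ng/ml. At 10 ng/ml 6 of the 9 fell, the collagen genes Col1a1, Col1a2 and Col3a1 among them, and 3 rose, which were Dcn, Pdgfra and Vim. In bulk RNA, fewer cells of a type and less RNA per cell cannot be told apart, and the part of this shift in the lipid genes was not tested. Of the adipocyte markers, Lep was at 0 in all libraries and Adipoq, Plin1 and Cidec stayed at or under 0.154 CPM. The summed level of the 6 was 6.67 and 8.53 CPM in untreated cells, 16.7 and 19.8 CPM at 10 ng/ml, 17.9 and 17.1 CPM at 30 ng/ml and 11.0 and 10.3 CPM at 100 ng/ml. At 10 ng/ml Fabp4 rose (log2 change 2.67 ± 0.22, SE, edgeR adjusted p = 7.86e-05) and Pparg fell (log2 change -3.73 ± 0.68, edgeR adjusted p = 0.00444). Summed macrophage markers, 7 genes, stood between 22 and 27.8 CPM in treated cells, against 15.4 and 11.7 CPM in untreated cells. At 10 ng/ml Cd68 averaged 8.84 CPM, against 2.06 CPM in untreated cells (edgeR adjusted p = 5.55e-05). Lyz2 averaged 14.2 CPM, against 9.54 CPM (edgeR adjusted p = 0.100), and Csf1r 1.67 CPM, against 1.55 CPM, with overlap. Ptprc, Adgre1, Mrc1 and Itgam stayed at or under 0.651 CPM in all libraries, with Mrc1 called higher at 10 ng/ml (edgeR adjusted p = 0.0428). Summed mesothelial markers, 5 genes, stood between 4.30 and 11.2 CPM in treated cells, against 13.4 and 12.9 CPM in untreated cells. The sums reached at most 2.22 CPM for epithelial cells, with Epcam at 0, 7.69 CPM for endothelial cells and 0.683 CPM for lymphocytes, with Cd3e, Cd3g and Nkg7 at 0. Among endothelial markers Cdh5 was higher at 10 ng/ml (4.04 CPM on average, against 0.150 CPM in untreated cells) and Tek was lower (1.46 CPM, against 4.74 CPM), with edgeR adjusted p = 4.07e-05 and 0.00146. The epithelial marker Krt18 was higher at 30 ng/ml (1.69 CPM, against 0.471 CPM in untreated cells, edgeR adjusted p = 0.0207). The part of these markers in the lipid changes was not tested either.

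Counting adds uncertainty for some members, since the sources used here do not say whether strand was used. Exons of 11 of the 29 genes overlap an exon of another gene, among the called genes Cyp51 (with Akap9), Scap (with 5830462I19Rik) and Fdps (with Gm43738). Stretches of 50 bases shared with other genes made up 39.1% of Acat2, which resembles Acat3, and 26.2% of Fdps, while Abca1, Fasn, Mvd, Insig2, Scap and Stard4 had 0%.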

How the data were processed

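The authors deposited 1 table of raw counts per gene for 8 libraries. The submitters' processing notes name the mm10 build, STAR and StringTie, without versions or roles. The sources used here do not give the counting program, annotation or use of strand. Of 55335 rows, 3225 without a symbol were left out. They held at most 0.178% of the counts of a library.

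Genes were tested with edgeR 4.0.16 (R 4.3.3; filterByExpr, TMM, quasi-likelihood F test, two-sided, 1 mean per group, all 8 libraries in 1 fit with 4 residual degrees of freedom), with Benjamini-Hochberg adjustment over 17360 genes. Replicate libraries differed beyond sampling noise (chi-square per degree of freedom 24.5 to 29.8). CPM per kb uses the merged exons of all GENCODE M21 transcripts of a gene, which can be longer than the transcripts expressed. Alternatives were DESeq2 1.42.0, limma-voom (limma 3.58.1), other scaling and filters, fewer libraries and a replicate block.

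All 29 members are named, with values in every library for those called against untreated cells and, from each further list, up to 4 genes with the smallest p at 10 ng/ml. The members, lists and this rule were chosen with earlier results of these data known. Some other genes of the pathway are not analysed here.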

Additional observations from a re-analysis of the deposited data

How the results depend on the processing

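No value changed direction while called, and no scaling moved the median of all genes by more than 0.03 on the log2 scale. DESeq2 called 1 member at 100 ng/ml against untreated cells and 1 at 30 against 10 ng/ml, where edgeR called 0. Over all genes DESeq2 called 598 and edgeR 194 at 100 ng/ml, and 127 and 0 between 30 and 10 ng/ml, where a fit of only the groups compared called 5 and one without both libraries labelled 100 ng/ml called 3; the cause was not tested. At 100 ng/ml 141 genes were higher and 53 lower in edgeR, 101 and 91 in limma-voom, and 99 and 81 in the fit of only the groups compared. Leaving out 1 library in turn gave 7 to 10 members called at 10 ng/ml, 6 to 10 at 30 ng/ml, 0 to 1 at 100 ng/ml, 3 to 11 for 100 against 10 ng/ml, 3 to 6 for 100 against 30 ng/ml and 0 to 1 for 30 against 10 ng/ml. Over all genes the same gave 3392 to 4839, 2540 to 3831, 91 to 237, 2406 to 3545, 1380 to 2468 and 3 to 62. The lone library of a group was then assumed to vary like the others. Replicate numbers did not pair the libraries (correlations of replicate differences between -0.11 and 0.05), and with the replicate block 9, 9, 0, 10, 5 and 0 members and 4661, 3578, 136, 3340, 2231 and 0 genes were called in the same order of comparisons. Among the 29 genes against untreated cells, the block lost the calls of Sc5d at 10 ng/ml (adjusted p = 0.0589) and Cyp51 at 30 ng/ml (0.0518) and gained Sqle at 30 ng/ml (0.0405). The alternatives for the further lipid lists were chosen after seeing the data. All 29 genes lay at 37.9 CPM or more in every library.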
